A study of Mus musculus with 6 samples.

Results

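The glycosyltransferases described here are Golgi enzymes that build and cap N- and O-glycans, and some build the sugars of glycolipids and proteoglycans. They were chosen by symbol, as the genes of the deposited table whose symbol starts with Galnt, Gcnt, B3gnt, B3galt, B4galt, St3gal, St6gal, St8sia, Mgat or Fut followed by a digit. The rule found 54 genes among the 14870 in the table. They were grouped by role into 13 that start O-glycans, 4 that branch O-glycans and related chains, 6 that branch N-glycans, 17 that add galactose or extend chains with N-acetylglucosamine, 10 that add sialic acid and 4 that add fucose.

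RNA was sequenced from primary lung-resident fibroblasts of adult mice of both sexes that carry CCSP-rtTA and (TetO)7-cmv TGFα, in which doxycycline (Dox) in the food turns on TGFα in the lung epithelium through the promoter of the Clara cell secretory protein. All cells came from TGFα mice kept on Dox for 10 days and had been grown in culture, and no cells of mice without the transgene are part of the comparison. In 3 libraries the cells had received control siRNA and in 3 libraries Aurkb siRNA, for 72 h in both cases. Small interfering RNAs guide the cell's own machinery to cut a matching mRNA, and Aurkb encodes the mitotic kinase Aurora kinase B. The comparison asks which transcripts differ when this kinase is knocked down. Whether the 3 libraries of each group stem from separate mice or separate cultures is not stated in the labels or the methods. The p-values therefore reflect spread between these libraries alone, and that spread may be technical.

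A protein O-glycan of the mucin type begins when a GalNAc-transferase (Galnt genes) places N-acetylgalactosamine on serine or threonine, after which the enzyme C1GALT1 adds galactose to form core 1 and a GCNT enzyme can add a branch to form core 2. An N-glycan is transferred as a block, trimmed, and then branched by the Mgat enzymes in a set order, the branch made by MGAT5 being one of the last. Both kinds of chain are extended with galactose and N-acetylglucosamine and are closed by sialic acid or fucose. Lectins such as galectins, selectins and siglecs read parts of these chains at the cell surface.

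Libraries held 20820596 to 30441954 reads counted to genes, the fewest in replicate 3 of Aurkb siRNA. The deposited values are RPKM, reads scaled by the length of the gene and the reads of the library. Read counts recovered from them were divided by the authors' size factors and are called normalized counts. Aurkb itself was at 99.5, 107.8 and 133.6 normalized counts with control siRNA and at 37.4, 52.8 and 28.9 with Aurkb siRNA. The groups did not overlap, and 34.9% of the control mean was left (log2 fold change -1.52 ± 0.23, standard error (SE), limma adjusted p = 9.27e-04; p = 0.1 by an exact permutation test, two-sided, which can go no lower with 3 libraries against 3). Fibroblast markers were high in both groups, their 10 genes summing to 10500 to 11600 RPKM in control siRNA libraries and 8890 to 9630 in Aurkb siRNA libraries, and Dcn and Pdgfra were called lower. Markers of other cells were also present. The sums of the endothelial and hematopoietic lists did not overlap between the groups, and those of the epithelial list did. The 11 endothelial markers summed to 83.5 to 102 RPKM in control siRNA libraries and 48.9 to 60.1 in Aurkb siRNA libraries, and 9 of them were called lower. Of 16 hematopoietic markers, 10 were in the table and 8 reached the minimum level, with a sum of 58.8 to 76.7 RPKM against 40.1 to 53.1. Cd68 and Lyz2 were lower, whereas the neutrophil genes Mpo, Elane, S100a8 and S100a9 were higher, Mpo and Elane having no reads in 2 of the 3 control siRNA libraries each. Cd14 and Csf1r were not called. The leukocyte marker Ptprc was under the minimum, at 3.35 and 5.10 normalized counts. Of 12 epithelial markers 9 were measured, with a sum of 15.2 to 25.3 RPKM against 17.4 to 34.0, Krt19 being higher and Sftpc lower. The part of these cell types in the results that follow was not tested, and in bulk RNA fewer cells of a type and less RNA per cell cannot be told apart.

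With Aurkb siRNA, 4 glycosyltransferases were higher and 7 were lower. The higher ones were Galnt7 and Galnt12, which start O-glycans, B3gnt7, which extends chains, and the polysialyltransferase St8sia2. The lower ones were Galnt4, Galnt9 and Galnt15, the core 2 enzyme Gcnt1, the N-glycan branching enzyme Mgat5, the galactosyltransferase B3galt1 and the polysialyltransferase St8sia4. A gene was called when limma gave an adjusted p (Benjamini-Hochberg, over all genes tested) of 0.05 or less and the change reached 1.5-fold. Of the 54 genes, 51 averaged 10 or more normalized counts in either group and were tested, and 40 of these were not called. The 11 called genes are 21.6% of those tested, beside 12.3% of all 13906 genes tested. By direction, 4 of 51 were higher beside 4.64% of all genes, and 7 of 51 were lower beside 7.67%. An adjusted p of 0.05 or less, with no demand on the size, was reached by 25 of the 51 beside 40.0% of all genes. Whether the set differs from all genes in any of these shares was not tested. Of the 25 that reached this adjusted p, 14 changed by less than 1.5-fold, 6 upward and 8 downward. The control and Aurkb siRNA libraries did not overlap for 27 of the 51 genes, beside 52.2% of all genes. The median log2 fold change of the 51 was -0.02, beside 0.003 over all genes tested, and the values ran from -3.02 to 1.74.

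**Figure D1:**
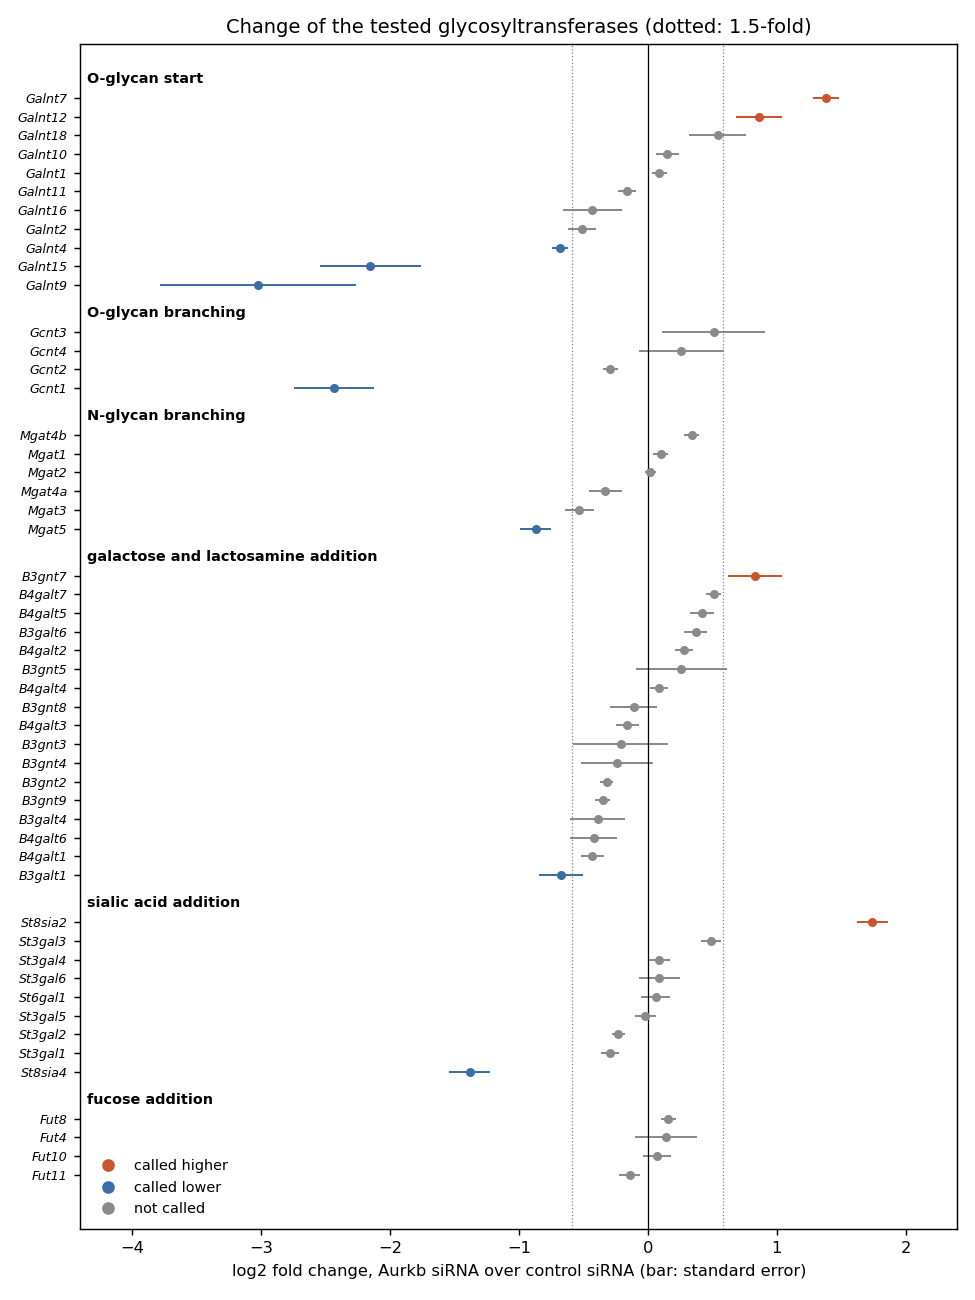
Log2 fold change of the 51 tested glycosyltransferases, Aurkb siRNA over control siRNA, on the horizontal axis, by role group, with bars for the standard error from limma and dotted lines at 1.5-fold. The 4 genes called higher and the 7 called lower stand apart in color, and the largest changes, downward, are those of Galnt9, Gcnt1 and Galnt15.

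The transcripts were also searched for a pair of short words. Earlier work on these same libraries had picked out the 7-base words AACGTGT and ACGTGTA, which share 6 of their bases and lie together as AACGTGTA in the coding sequence of Aurkb, because transcripts lower with Aurkb siRNA held them often in the 3′ untranslated region, so their presence in lower genes is no independent result. No source used here gives the siRNA sequence. The sites shown are those of Aurkb and of every called glycosyltransferase that holds a word, read on the mRNA strand from GRCm38 with GENCODE M21 transcripts, with the word in capitals.
Aurkb, coding, chr11:69048225-69048252, plus strand: caaatttggaAACGTGTActtggctcgg
St8sia4, 3′ untranslated, chr1:95627448-95627475, minus strand: gacacaatagAACGTGTAactaaagaat
Galnt4, coding, chr10:99110093-99110119, plus strand: tccatatgaaAACGTGTgatgcccttg
Galnt9, coding, chr5:110614222-110614248, plus strand: ttcaagtcccACGTGTAcatggcatgg
Galnt9, coding, chr5:110615474-110615501, plus strand: gtacctggagAACGTGTAccccgagatg
St8sia2, coding, chr7:73966873-73966899, minus strand: cagcacaatgAACGTGTcccagaacct

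The site of St8sia4 lies 38 bases after the stop codon in 1 of its 2 coding transcripts. St8sia2, which was higher with Aurkb siRNA, holds a word in its coding sequence, as do 29 of the 577 searched genes called higher (5.03%). Among the 7 lower glycosyltransferases, 1 held a word in the 3′ untranslated region (14.3%), beside 21.9% of all genes called lower. In the coding sequence 2 of the 7, Galnt4 and Galnt9, held one (28.6%), beside 13.9% of all genes called lower. The other called genes, Gcnt1, Galnt15, Mgat5, B3galt1, Galnt7, Galnt12 and B3gnt7, hold neither word in the coding sequence or the 3′ untranslated region. Of the 51 tested glycosyltransferases, 2 held a word in the 3′ untranslated region (3.92%), the second being Galnt2, beside 6.70% of the 12807 tested genes with such a region. In the coding sequence 6 of 51 held one (11.8%), beside 7.60% of 12843 genes. The 3 of these 6 that were not called were Galnt16, B3galt4 and St3gal2. A match is a description of the letters only.

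Enzymes that start O-glycans made up the group with the most called genes, 5 of the 11 tested (45.5%, beside 12.3% of all genes tested). The called genes moved in both directions. Galnt7, which prefers peptides that already carry N-acetylgalactosamine and so acts after other members, was at 357, 475 and 438 normalized counts with control siRNA and at 1088, 1060 and 1138 with Aurkb siRNA. All 3 Aurkb siRNA libraries lay above all 3 control libraries, a 2.59-fold difference of means (423 ± 60.3 against 1095 ± 39.6, SD, n = 3 each; log2 fold change 1.38 ± 0.10, SE, limma adjusted p = 2.73e-05). In GRCm38 it spans 57523825 to 57653055 of chromosome 8. Galnt12, a GalNAc-transferase of low level in these cells, was at 44.8, 45.2 and 40.3 normalized counts with control siRNA and at 95.0, 67.3 and 78.9 with Aurkb siRNA. Its groups did not overlap either (log2 fold change 0.86 ± 0.18, SE, limma adjusted p = 0.00445).

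Galnt4, the enzyme known in human cells for glycosylating the selectin ligand PSGL-1, was at 1031, 1062 and 1095 normalized counts with control siRNA and at 634, 689 and 672 with Aurkb siRNA. The libraries of each group lay close together and the groups were well apart, with 62.6% of the control mean left (log2 fold change -0.68 ± 0.06, SE, limma adjusted p = 5.64e-05). Galnt15 was at 218, 94.0 and 113 normalized counts with control siRNA and at 49.9, 18.6 and 26.3 with Aurkb siRNA. Its spread within a group was wide, replicate 1 being the highest in both groups, and the lowest control library was still above the highest Aurkb siRNA library (log2 fold change -2.15 ± 0.39, SE, limma adjusted p = 0.00244). Galnt9, whose transcript is best known from the brain, had 17, 9 and 23 reads with control siRNA and 0, 5 and 0 reads with Aurkb siRNA. It was the lowest of the called genes, and the size of its change (log2 fold change -3.02 ± 0.76, SE, limma adjusted p = 0.0118) depends on the 1 added before the logarithm. With 8 added it was -1.24, and without replicate 3 of control siRNA the call was lost (adjusted p = 0.0552 from limma). Galnt4 and Galnt12 were no longer called on the log2(RPKM + 1) scale, at -0.58 and 0.44, where Galnt15 was at -1.07 and still called.

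Per length, Galnt2 and Galnt1 were the main GalNAc-transferases of these cells. Galnt2 was at 68.5, 76.3 and 73.7 RPKM with control siRNA and at 45.5, 61.6 and 48.2 with Aurkb siRNA. It lay below the control libraries in all 3 Aurkb siRNA libraries, on average by less than 1.5-fold (log2 fold change -0.51 ± 0.11, SE, limma adjusted p = 0.00575), and it was called without replicate 2 of Aurkb siRNA, at -0.65. Galnt1 was at 39.3, 35.7 and 35.3 RPKM with control siRNA and at 42.9, 36.9 and 38.3 with Aurkb siRNA, and its groups overlapped. The RPKM of all genes with a Galnt symbol were summed, which leaves out the GalNAc-transferase gene Wbscr17, at a mean of 1.64 RPKM. Of this sum, Galnt2 held 46.9%, 50.2% and 49.1% with control siRNA and 34.9%, 43.0% and 37.9% with Aurkb siRNA. The share of Galnt7 went from 1.98%, 2.55% and 2.38% to 6.97%, 5.97% and 7.24%, so that it passed Galnt4, whose share was 5.05% to 5.25% in control siRNA libraries and 3.44% to 3.78% in Aurkb siRNA libraries. The summed RPKM was 146, 152 and 150 with control siRNA and 130, 143 and 127 with Aurkb siRNA.

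**Figure D2:**
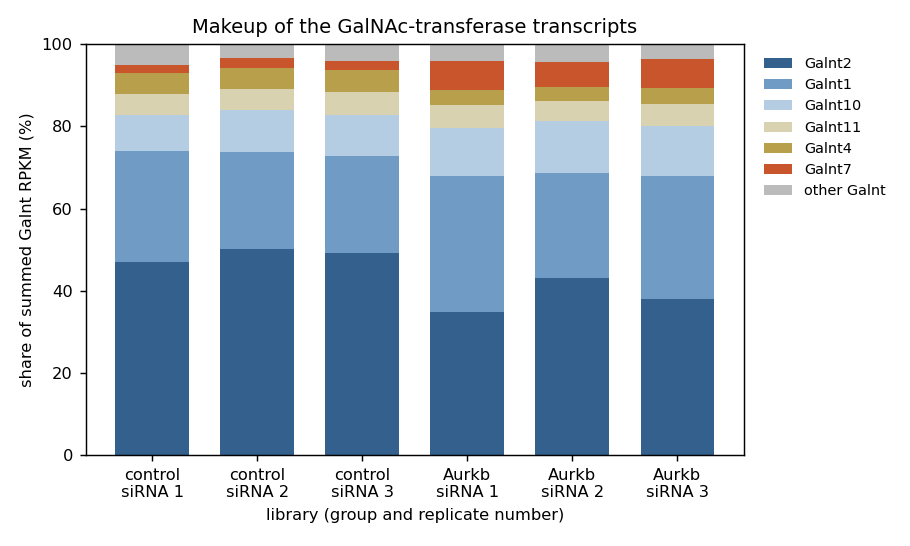
Share of the summed RPKM of all genes with a Galnt symbol, in percent, held by each of 6 Galnt genes and by the others together in each of the 6 libraries. Galnt2 held 46.9% to 50.2% in control siRNA libraries and 34.9% to 43.0% in Aurkb siRNA libraries, and Galnt7 held 1.98% to 2.55% and 5.97% to 7.24%.

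The other members that start O-glycans were not called. Galnt10, which like Galnt7 acts on peptides that already carry the sugar, was at 1860 and 2063 normalized counts as means with control and Aurkb siRNA. Galnt11 was at 543 and 486, Galnt16 at 144 and 111, and Galnt18 at 115 and 174. Galnt16 was called only without replicate 2 of Aurkb siRNA, at -0.69, and Galnt18 only without replicate 3 of Aurkb siRNA, at 0.75. Galnt3, known in human disease for protecting the hormone FGF23, had means of 3.92 and 5.05 normalized counts and Galnt6 of 4.84 and 2.92, both under the minimum level.

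Gcnt1, the enzyme that makes the core 2 branch of O-glycans in most cells, fell the most of the called members other than Galnt9. It was at 2693, 1316 and 1709 normalized counts with control siRNA and at 506, 220 and 347 with Aurkb siRNA. The highest Aurkb siRNA library was well under the lowest control library, and 18.8% of the control mean was left (1906 ± 709 against 358 ± 143, SD, n = 3 each; log2 fold change -2.43 ± 0.31, SE, limma adjusted p = 3.92e-04). The change ran from -2.72 to -2.12 when each library was left out in turn, always called. In GRCm38 the gene spans 17326141 to 17372844 of chromosome 19. Gcnt2, which adds branches to lactosamine chains, was at 6.01, 5.39 and 5.66 RPKM with control siRNA and at 4.77, 4.43 and 4.82 with Aurkb siRNA. Its groups did not overlap, but the difference was under 1.5-fold (log2 fold change -0.29 ± 0.06, SE, limma adjusted p = 0.0064). In the summed RPKM of the Gcnt genes, Gcnt1 held 76.8%, 64.7% and 69.6% with control siRNA and 44.8%, 26.2% and 34.4% with Aurkb siRNA, and Gcnt2 was the larger in every Aurkb siRNA library. Gcnt3, which can also make core 2, was at means of 7.59 and 11.5 normalized counts and Gcnt4 at 23.6 and 27.5, and neither was called.

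Among the enzymes of N-glycan branching, 1 of 6 was called (16.7%, beside 12.3% of all genes tested). Mgat5, which adds the branch that carries long lactosamine chains, ligands of galectins, was at 273, 272 and 305 normalized counts with control siRNA and at 142, 181 and 142 with Aurkb siRNA. The groups did not overlap, and 54.7% of the control mean was left (log2 fold change -0.87 ± 0.12, SE, limma adjusted p = 5.89e-04). An exon of Tmem163 on the other strand overlaps Mgat5, on chromosome 1 from 127204919 to 127488334, and since the strand setting of the counting is not given, reads of the 2 genes cannot be told apart there. Mgat3, which adds the bisecting residue that blocks further branching, was at means of 897 and 623 normalized counts and passed the adjusted p at less than 1.5-fold (log2 fold change -0.53 ± 0.11, SE, limma adjusted p = 0.00402). It was called without replicate 2 of control siRNA, at -0.61, and without replicate 1 of Aurkb siRNA, at -0.60.

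The enzymes of higher level in this group belong to the earlier branches. Mgat4b, which adds a branch on the arm opposite to that of MGAT5, was at 47.5, 48.6 and 44.2 RPKM with control siRNA and at 65.0, 56.0 and 57.2 with Aurkb siRNA. All 3 Aurkb siRNA libraries lay above the control libraries, on average by less than 1.5-fold (log2 fold change 0.34 ± 0.06, SE, limma adjusted p = 0.00211). Its relative Mgat4a was at means of 452 and 360 normalized counts and was not called. Mgat2, which makes the second branch, was at 41.7, 41.6 and 39.4 RPKM with control siRNA and at 42.5, 40.9 and 41.2 with Aurkb siRNA. Mgat1, which makes the first, was at means of 2716 and 2902 normalized counts, and the groups of both overlapped. Of the summed RPKM of the Mgat genes, Mgat5 held 2.41% to 2.84% in control siRNA libraries and 1.16% to 1.55% in Aurkb siRNA libraries, whereas Mgat4b held 34.8% to 36.5% and 40.8% to 43.4%. The ratio of Mgat5 to Mgat3 in RPKM overlapped between the groups, at 0.424 to 0.514 and 0.311 to 0.507.

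Of the 17 enzymes that add galactose or extend chains, 1 was higher, 1 was lower and 15 were not called. The share called was 11.8%, near the 12.3% of all genes tested. B3gnt7, which extends the chains of keratan sulfate and mucins, was at 77.1, 78.3 and 57.7 normalized counts with control siRNA and at 160, 93.2 and 134 with Aurkb siRNA. The groups did not overlap (log2 fold change 0.83 ± 0.21, SE, limma adjusted p = 0.0136). The call was lost on the log2(RPKM + 1) scale, at 0.49, and without replicate 3 of control siRNA (adjusted p = 0.055 from limma), and Gm28626 on the other strand shares exonic bases with the gene. B3galt1, which adds galactose to terminal N-acetylglucosamine, was at 133, 111 and 126 normalized counts with control siRNA and at 76.8, 95.2 and 61.8 with Aurkb siRNA. Its groups did not overlap (log2 fold change -0.67 ± 0.17, SE, limma adjusted p = 0.014), yet the call was lost without replicate 3 of control siRNA (adjusted p = 0.0508 from limma) and without replicate 3 of Aurkb siRNA, at -0.52.

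B4galt1, the main galactosyltransferase of N-glycan branches, had the highest level per length of all 54 genes. It was at 89.7, 104 and 104 RPKM with control siRNA and at 65.8, 81.4 and 74.7 with Aurkb siRNA. All 3 Aurkb siRNA libraries were below the control libraries by less than 1.5-fold on average (log2 fold change -0.43 ± 0.09, SE, limma adjusted p = 0.0061). B4galt5, a lactosylceramide synthase of glycolipids, was at 37.3, 32.0 and 36.7 RPKM with control siRNA and at 54.5, 43.5 and 44.7 with Aurkb siRNA, without overlap (log2 fold change 0.42 ± 0.09, SE, limma adjusted p = 0.00455). The share of B4galt1 in the summed RPKM of the B4galt genes was 48.3% to 53.4% in control siRNA libraries and 35.1% to 43.8% in Aurkb siRNA libraries, and that of B4galt5 was 16.5% to 20.1% and 23.4% to 29.1%.

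Of the remaining members of this group, 5 passed the adjusted p at less than 1.5-fold. B4galt7 and B3galt6 add the first and the second galactose of the linker that ties glycosaminoglycans to proteoglycans, and both lay above control, at means of 607 and 867 and of 202 and 260 normalized counts (log2 fold changes 0.51 and 0.37, limma adjusted p = 1.62e-04 and 0.00985). B4galt2 was at 808 and 979. B3gnt2, the main enzyme of polylactosamine chains, lay below control, at 1051 and 839, as did B3gnt9, at 736 and 576. The other 8 did not pass. B4galt3 was at means of 423 and 377 normalized counts, B4galt4 at 1524 and 1622, and B4galt6, the second lactosylceramide synthase, at 1218 and 906. B3galt4, a ganglioside galactosyltransferase, was at 107 and 82.6, and B3gnt8 at 79.7 and 73.3. B3gnt3, B3gnt4 and B3gnt5 were at 18.5 and 15.7, 15.8 and 13.1, and 13.7 and 16.0.

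The pair of polysialyltransferases changed in opposite directions. They were the 2 called genes among the 9 tested that add sialic acid (22.2%, beside 12.3% of all genes tested). St8sia2 and St8sia4 build the same long chains of sialic acid, chiefly on the adhesion molecule NCAM, and St8sia2 is known as the form of the embryo and St8sia4 as the form that persists in the adult. St8sia2 was at 62.8, 62.7 and 65.0 normalized counts with control siRNA and at 219, 189 and 237 with Aurkb siRNA. The control libraries were nearly equal and all 3 Aurkb siRNA libraries lay far above them, a 3.39-fold difference of means (63.5 ± 1.31 against 215 ± 23.8, SD, n = 3 each; log2 fold change 1.74 ± 0.12, SE, limma adjusted p = 2.71e-05). St8sia4 was at 206, 183 and 232 normalized counts with control siRNA and at 85.4, 90.1 and 63.1 with Aurkb siRNA. The groups did not overlap and 38.4% of the control mean was left (207 ± 24.1 against 79.5 ± 14.4, SD, n = 3 each; log2 fold change -1.38 ± 0.16, SE, limma adjusted p = 2.50e-04). In GRCm38 St8sia2 spans 73939119 to 74013727 of chromosome 7 and St8sia4 spans 95587682 to 95667717 of chromosome 1.

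Per length, St8sia4 was the larger of the pair in every control library and St8sia2 the larger in every Aurkb siRNA library. The ratio of St8sia2 to St8sia4 in RPKM was 0.338, 0.380 and 0.312 with control siRNA and 2.85, 2.34 and 4.17 with Aurkb siRNA. Their summed RPKM overlapped between the groups, at 1.69, 1.57 and 1.87 and at 2.08, 1.84 and 1.99. Both are low in these cells, and on the log2(RPKM + 1) scale, which shrinks the changes of low genes, the changes were 0.79 and -0.61, both still called. St8sia6, a further member of the family, was under the minimum level at means of 6.39 and 4.52 normalized counts.

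**Figure D3:**
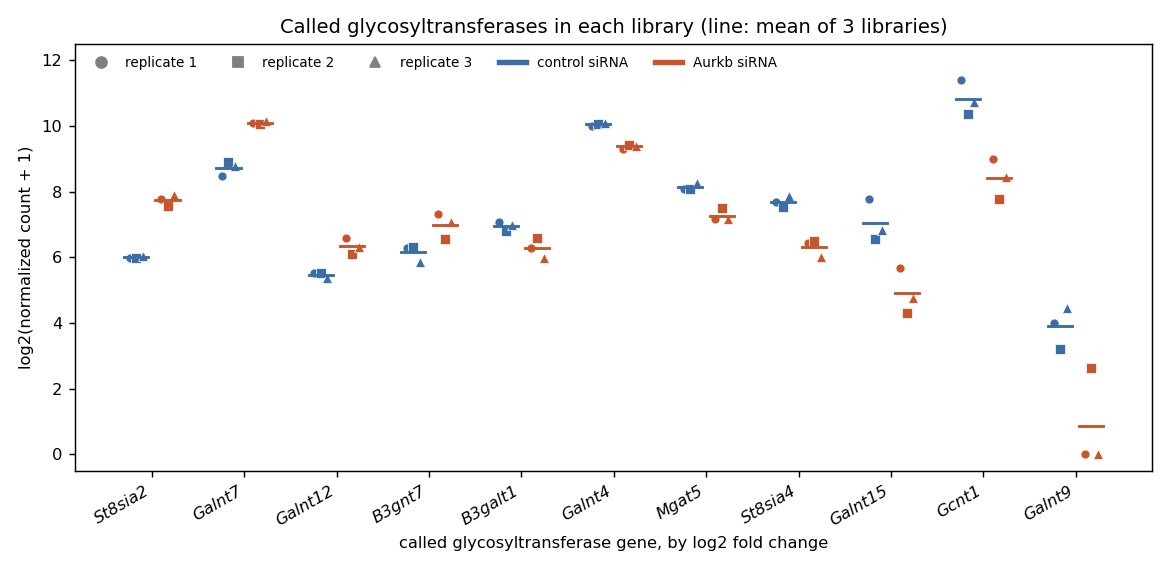
Log2 of the normalized count plus 1 of the 11 called glycosyltransferases in each of the 6 libraries, ordered by log2 fold change, with a line at the mean of each group of 3. No gene has overlapping groups, and replicate 1 is the highest and replicate 2 the lowest in both groups for Gcnt1 and Galnt15.

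The enzymes that add single sialic acids to galactose were expressed at higher levels and none of them was called, beside 12.3% of all genes tested. St3gal1, which caps core 1 of O-glycans, was at 33.5, 28.2 and 32.1 RPKM with control siRNA and at 26.2, 24.7 and 25.6 with Aurkb siRNA. St3gal2, which acts on core 1 and on gangliosides, was at 24.5, 25.7 and 26.6 and at 21.1, 22.6 and 22.0 RPKM. The groups of both did not overlap and the differences were under 1.5-fold (log2 fold changes -0.29 and -0.23, limma adjusted p = 0.00779 and 0.0092). St3gal3, an enzyme of lactosamine ends, was at means of 633 and 889 normalized counts, also under 1.5-fold (log2 fold change 0.49, limma adjusted p = 0.00145). St3gal4 and St3gal6, which also act on lactosamine, were at 455 and 484 and at 107 and 115. St3gal5, which makes the ganglioside GM3, was at 1126 and 1111, and St6gal1, which caps N-glycans, at 1923 and 2005, and none of these 4 passed the adjusted p.

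Enzymes that add fucose were not called. Of the 4 tested, 0 passed the adjusted p from limma and 0 with voom, and 1, Fut8, had an unadjusted p under 0.05. Over all genes tested, 40.0% passed the adjusted p from limma and 12.3% were called. Fut8, which adds the core fucose of N-glycans, was at 10.5, 11.8 and 10.7 RPKM with control siRNA and at 12.6, 11.6 and 12.6 with Aurkb siRNA. Its log2 fold change was small (0.16 ± 0.06, SE, limma adjusted p = 0.0645, or 0.048 with the replicate number as a block). Fut11 was at 5.69, 5.94 and 6.56 RPKM and at 5.51, 5.11 and 5.89. Fut10 was at means of 273 and 287 normalized counts, and Fut4, an enzyme of the Lewis x antigen, at 25.8 and 28.3.

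Over the whole set, 17 genes had a mean RPKM above 10 and 14 had one under 1. The summed RPKM of all 54 was 641, 647 and 651 with control siRNA and 624, 616 and 602 with Aurkb siRNA. By role, the sums were 127 to 134 and 137 to 150 for N-glycan branching, 213 to 226 and 205 to 213 for galactose and chain extension, 103 to 110 and 101 to 103 for sialic acid, and 18.1 to 19.6 and 18.7 to 20.8 for fucose, with control and Aurkb siRNA respectively. Relative to its size, the sum of O-glycan branching differed most, at 15.9 to 27.2 and 6.50 to 9.03.

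The labels give each library a replicate number but do not say what libraries of the same number in the 2 groups share. Ratios within a number are given as a description of how steady each change was. Gcnt1 in Aurkb siRNA libraries was at 0.188, 0.168 and 0.203 of the control library of the same number, although its control libraries themselves spanned 1316 to 2693 normalized counts. Galnt15 was at 0.229, 0.198 and 0.234. For both genes the ratio was steadier than the level. St8sia4 was at 0.414, 0.491 and 0.272, Mgat5 at 0.519, 0.666 and 0.466, and Galnt4 at 0.615, 0.649 and 0.614. Of the genes that were higher, St8sia2 was at 3.49, 3.02 and 3.64 and Galnt7 at 3.05, 2.23 and 2.60. The ratios closest to 1 were those of replicate 2 for B3gnt7, at 1.19, and for B3galt1, at 0.861.

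**Figure D4:**
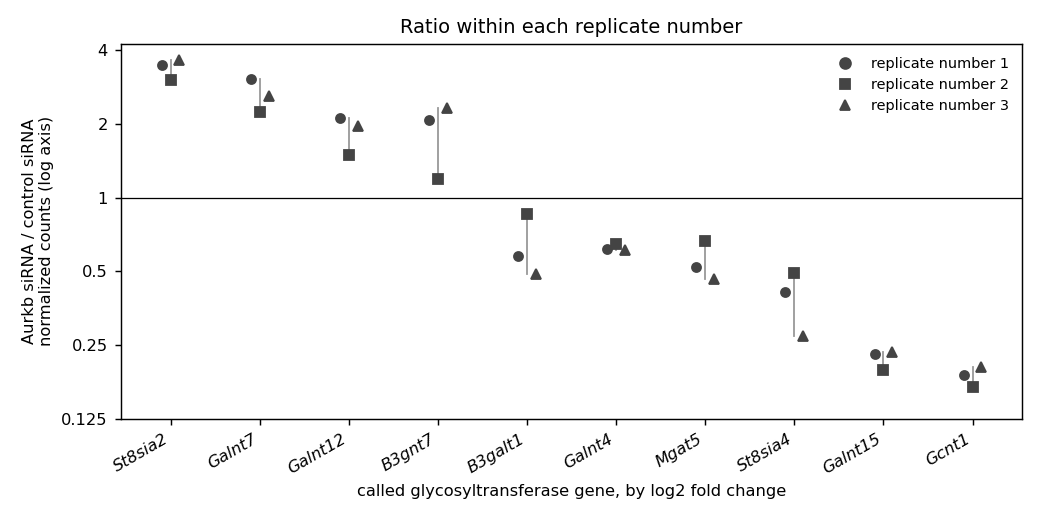
Ratio of normalized counts, Aurkb siRNA over control siRNA, within each replicate number on a log axis for 10 of the 11 called genes, with a line from the lowest to the highest ratio. Galnt9 is left out because 2 of its ratios are 0, and the ratios of Galnt4, Galnt15, St8sia2 and Gcnt1 lie closest together.

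Genes that work beside these enzymes were read from lists. Over all genes tested, 4.64% were called higher, 7.67% were called lower and 40.0% reached an adjusted p of 0.05 or less from limma. The median log2 fold change over all genes was 0.003. Of 27 other glycan transferases, 21 were in the table and tested, and 8 reached that adjusted p. Of the 21, 0 were higher (3 upward at an unadjusted p under 0.05 with limma, and 0 called higher with voom) and 4 were lower, with a median log2 fold change of -0.10. C1galt1, the enzyme of core 1, on which the enzyme of Gcnt1 builds, was at 1006, 1070 and 1171 normalized counts with control siRNA and at 511, 522 and 518 with Aurkb siRNA (log2 fold change -1.06 ± 0.07, SE, limma adjusted p = 1.80e-05). The groups were far apart, and its chaperone C1galt1c1 was at 451, 504 and 461 and at 449, 472 and 451. Poglut1, which adds glucose to the repeats of Notch, was at means of 2079 and 1318, and Mfng, which extends the fucose of Notch, at 59.2 and 24.0. The fourth, St6galnac3, named after its values were seen, was at 32.7 and 17.9 and kept its call in 3 of the 6 fits that leave out 1 library.

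Of 34 genes of sugar nucleotide synthesis and Golgi transport, 32 were tested, 4 were higher and 2 were lower, with a median of 0.11. An adjusted p of 0.05 or less from limma was reached by 18 of the 32. Gfpt2, which starts the hexosamine pathway to UDP-N-acetylglucosamine, rose from a mean of 2576 to 4526 normalized counts, and Gmppb, of GDP-mannose synthesis, from 532 to 865. Slc35a3, the Golgi transporter of UDP-N-acetylglucosamine, fell from 797 to 397, and Galk1, the galactokinase, from 1005 to 637. Slc35d2, a transporter of nucleotide sugars that was named after its values were seen, was also called higher, at 265 and 428. Of 21 genes of N-glycan transfer and trimming, 1 was higher and 1 lower, with a median of 0.14. An adjusted p of 0.05 or less from limma was reached by 16 of the 21, most at less than 1.5-fold, beside 40.0% of all genes. At an unadjusted p under 0.05 with limma, 11 went upward and 6 downward. The called genes were the Golgi mannosidases Man2a1, at 4017 and 6245 normalized counts, and Man1c1, at 1985 and 1260. The adjusted p of all genes named here as higher or lower from these 3 lists was 0.05 or less from limma. Of the 7 genes called lower in these 3 lists, 4 (C1galt1, St6galnac3, Slc35a3 and Galk1) hold AACGTGT or ACGTGTA in the 3′ untranslated region, 1 (Man1c1) holds one in the coding sequence, and 2 (Poglut1 and Mfng) hold neither word in either. Over all genes called lower, from which the words had been picked, 21.9% hold one in the 3′ untranslated region and 13.9% in the coding sequence. Of the 5 genes called higher in these 3 lists, 0 hold a word. With the list of galectins and sialidases added, 4 of the 8 lower genes hold one in the 3′ untranslated region. Of those 8, 3 hold neither word, and 0 of the 6 higher genes hold one. Over all genes called higher, 3.50% hold one in the 3′ untranslated region and 5.03% in the coding sequence.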

How the data were processed

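The authors deposited RPKM values per library (the unit follows from the values) and, as a signal, group means of counts divided by DESeq size factors. In the submitters' processing notes the tools are TopHat, DESeq, bcl2fastq and CASAVA 1.8, and the build is mm10. How reads were counted, with which strand setting and annotation, is not given in the sources used here. Deposited fold changes, log2 values and p-values are the authors' own comparison of the groups and were not used, nor was a table of genes selected by the authors.

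Read counts were recovered from the RPKM values. The steps of the libraries came from 3172 low genes, and 100% of 89220 values came out whole (largest deviation 1e-09, tolerance 0.001). Dividing by the size factors of the authors (0.7608 to 1.1155) gave normalized counts. A limma 3.58.1 fit (trend, R 4.3.3, 4 residual degrees of freedom) on log2(normalized count + 1) took genes averaging 10 or more in either group, and calls needed an adjusted p (Benjamini-Hochberg) of 0.05 or less and 1.5-fold or more. This scale understates the change of low genes. The fit was tested on simulated data with planted changes. The simulated libraries were drawn independently of each other, so that test does not cover deviations shared between libraries. RPKM served to compare levels between genes.

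Libraries of the same replicate number deviated together from their group means (correlations across genes 0.395, 0.173 and 0.214, against -0.243 to 0.049 for different numbers), and the labels give these numbers, so a fit with the number as a block was compared. The other alternatives were other scales, pseudocounts, minimum levels and thresholds, voom, and each library left out.

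Called members and the 2 of highest RPKM in each role group are given by library, and the others by means. Of each pathway list, up to 3 called genes of smallest p and those against its majority are named. Single genes of the marker lists were named after their values were seen. The values of 1 listed gene are not reported here. Members and lists were chosen with earlier results of these data known. All 54 members were matched to RefSeq (GRCm38.p6) by Entrez number. Scripts ran on matplotlib 3.10.9, scipy 1.17.1, numpy 2.4.6 and pandas 2.3.3 under Python 3.11.15.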

Additional observations from a re-analysis of the deposited data

How the results depend on the processing

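Across 15 alternatives, Galnt7, Galnt15, Gcnt1, St8sia2 and St8sia4 kept their calls in all, and no called glycosyltransferase reversed in any alternative that gave it a value. On log2(RPKM + 1), 2 members were higher and 4 lower, beside 311 and 531 genes in all. A fold threshold of 2 gave 2 and 4 members and 224 and 380 genes, and ended the calls of Galnt4, Galnt12, Mgat5, B3gnt7 and B3galt1. Leaving out 1 library gave 3 to 5 members higher and 5 to 9 lower, and 575 to 633 genes higher and 898 to 1113 lower. With the replicate number as a block, 4 members were higher and 7 lower, as without it, and 694 genes were higher and 1171 lower. The block changed no other call among the members. Galnt9 and B3galt1 gave no value where the minimum was an RPKM of 1, nor Galnt9 at a minimum mean of 50. Galnt9 rests on few reads, at most 23 in a library. Galnt3, Galnt6 and St8sia6 fell under the minimum level, and with no minimum 4 members were higher and 7 lower, as with it. With 3 libraries a group, an exact permutation test of 1 gene cannot go below p = 0.1.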

Other observations

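Proteins that read these glycans or remove their ends were looked up as a list of galectins and sialidases. Of 12 genes, 8 were in the table and 7 were tested, with a median log2 fold change of -0.03. Of the 7, 1 was higher and 1 was lower, beside 4.64% and 7.67% of all genes tested. Neu3, the sialidase of the plasma membrane that acts on gangliosides, was at 207, 229 and 217 normalized counts with control siRNA and at 367, 339 and 410 with Aurkb siRNA. The groups did not overlap (log2 fold change 0.77, limma adjusted p = 3.54e-04). Lgals2, or galectin-2, was at 17, 16.6 and 13.7 and at 6.72, 5.18 and 3.94, few reads in every library, and its groups did not overlap (log2 fold change -1.44, limma adjusted p = 0.00908).

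B4galt6 shared the replicate pattern of Gcnt1 and Galnt15. It was at 1560, 965 and 1129 normalized counts with control siRNA and at 1111, 782 and 824 with Aurkb siRNA, replicate 1 being the highest and replicate 2 the lowest in both groups. The ratio within a replicate number was 0.712, 0.810 and 0.730, and its adjusted p from limma was 0.0929 without the replicate block and 1.54e-04 with it, at a log2 fold change of -0.42 that is under 1.5-fold in both fits.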
